A study of Homo sapiens with 6 samples.

Results

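HPCAL1 and 9 genes of ferroptosis defence and iron handling were followed in PC9OR cells after knockdown of GLMP. The 10 genes are HPCAL1, GPX4, SLC7A11, ACSL4, AIFM2, FTH1, FTL, TFRC, SLC40A1 and STEAP3, and they are 10 of 60664 gene rows in the count table. They were selected by gene symbol from knowledge of the pathway, and chosen on the fold changes between si-GLMP and NC in these same libraries, which were already known. Their changes in this contrast are therefore given as a description, and the adjusted p beside each is its value in a fit of all tested genes.

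PC9OR is a lung cancer line, and PC9 is a human lung adenocarcinoma line with an activating EGFR deletion. The tested libraries were 3 labelled si-GLMP (genotype GLMP knockdown) and 3 labelled NC (genotype Control), all from PC9OR cells. The line, the dose and time of the knockdown, the number of silencing RNAs and any drug in the medium are described no further in the sources used here, and nothing says that the replicates were separate cultures, so p-values describe the scatter among these libraries, which may be technical. GLMP, a lysosomal membrane glycoprotein, had 82, 61 and 65 counts in si-GLMP replicates 1 to 3, against 309, 344 and 347 counts in NC replicates 1 to 3, a fall of 79.0%. Of its exonic bases 17.5% also lie in TMEM79, on the other strand. TMEM79 had 567, 529 and 521 counts in si-GLMP replicates 1 to 3, against 339, 405 and 420 counts in NC replicates 1 to 3. With the strand setting unknown, the reads of GLMP and TMEM79 cannot be told apart where they overlap.

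Ferroptosis is a form of cell death driven by iron-dependent peroxidation of membrane phospholipids. Cells hold it off by importing cystine for glutathione synthesis, by reducing lipid peroxides with the selenoenzyme GPX4, and by regenerating radical-trapping quinones. Free iron feeds the peroxidation, so iron uptake, storage in ferritin and export set how sensitive a cell is. Iron storage and uptake are themselves set after transcription: iron regulatory proteins bind hairpins called iron-responsive elements, which block translation when they lie in the 5′ untranslated region and protect the mRNA from decay when they lie in the 3′ untranslated region. HPCAL1 is a neuronal calcium sensor protein that has also been described as an autophagy receptor which delivers N-cadherin to degradation and so promotes ferroptosis.

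Of the 10 genes, 4 carried such a hairpin, and these sequences are shown because ferritin and the transferrin receptor are the textbook pair that iron moves in opposite directions through them. The search was for a C, 5 bases, the loop CAGTGN and 5 bases able to pair with the first 5, G with T included. It used 1 GENCODE release 29 transcript per gene on GRCh38, and capitals mark the 6-base loop. The hairpins lay in the 5′ untranslated region of FTH1 (chr11:61967580-61967596, minus strand), FTL (chr19:48965341-48965357, plus strand) and SLC40A1 (chr2:189580667-189580683, minus strand). TFRC held 4 of them in its 3′ untranslated region (minus strand), of which the first (chr3:196050985-196051001) and the last (chr3:196050469-196050485) are printed.
FTH1: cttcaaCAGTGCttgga
FTL: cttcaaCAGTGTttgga
SLC40A1: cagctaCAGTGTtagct
TFRC, first: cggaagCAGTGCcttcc
TFRC, last: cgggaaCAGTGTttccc

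The FTH1 and FTL hairpins had 16 of 17 bases in common and differed by C12T, counted from 1 at the 5′ end, with the FTH1 base first. Among 19666 genes with a transcript, 21 (0.107%) held such a hairpin in the 5′ untranslated region and 104 (0.529%) in the 3′ untranslated region. Only TFRC and SLC35E2A held 3 or more in the 3′ untranslated region. A match is a description of the letters and not evidence of binding. Of the 21 genes with a 5′ hairpin 15 could be tested, of which 2 were higher and 3 lower in si-GLMP (FDR-adjusted p of edgeR under 0.05). Of the 104 with a 3′ hairpin 85 could be tested, of which 11 were higher and 14 lower, beside 12.0% higher and 11.3% lower over all tested genes.

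Library totals ran from 19896875 to 22372878 counts, and 15900 genes passed the filter on low counts, all 10 of these genes among them. Levels are TMM-scaled CPM, the counts of a gene relative to the library total. A gene was called when its edgeR quasi-likelihood p, Benjamini-Hochberg adjusted over all tested genes, was under 0.05. Epithelial markers summed to between 8291 and 9280 CPM in si-GLMP and between 9094 and 9370 CPM in NC. The lung lineage genes NKX2-1, NAPSA and SFTPB together reached at most 0.659 CPM in si-GLMP and 0.709 CPM in NC. Leukocyte markers reached at most 2.44 CPM in si-GLMP and 1.91 CPM in NC, with LYZ and TYROBP at 0 throughout. Erythroid markers, relevant to iron, reached at most 0.188 CPM in si-GLMP and 0.222 CPM in NC, and endothelial markers 7.63 and 7.67 CPM. Fibroblast markers summed to up to 12.004 CPM in si-GLMP and 7.12 CPM in NC, of which COL1A1 averaged 10.07 CPM in si-GLMP and 5.38 CPM in NC, with COL3A1 at 0; the part of these cell type markers in the results was not tested. NC replicate 2 stood apart from the other NC libraries. The chi-square per degree of freedom between NC replicates 1 and 3 was 2.39, against 12.9 and 15.05 for the pairs that included NC replicate 2. The si-GLMP libraries also differed among themselves, at 11.2 (replicates 1 and 2), 5.71 (1 and 3) and 7.24 (2 and 3). Mitochondrially encoded mRNAs took 8.73% of the counts of NC replicate 2, and 6.49% to 6.55% in the other NC libraries. They took 5.18% to 5.49% in si-GLMP, and the part of this difference in the results was not tested. Fits without NC replicate 2 are given for FTH1, FTL, SLC7A11 and several other genes, but not for every value that depends on it.

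In si-GLMP 5 of the 10 genes were called higher (HPCAL1, TFRC, FTL, STEAP3 and AIFM2), 0 lower and 5 not past the threshold. Over all 15900 tested genes 23.3% were called, 12.0% higher and 11.3% lower. The median log2 fold change was 0.33 over the 10 genes and 0.0036 over all tested genes. Groups did not overlap in CPM for 7 of the 10, as for 36.5% of all tested genes. Since the genes were chosen on this contrast, nothing is read from these shares. Bulk values average over all cells, so a change in every cell and a change in the share of cells that express a gene cannot be told apart.

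**Figure D1:**
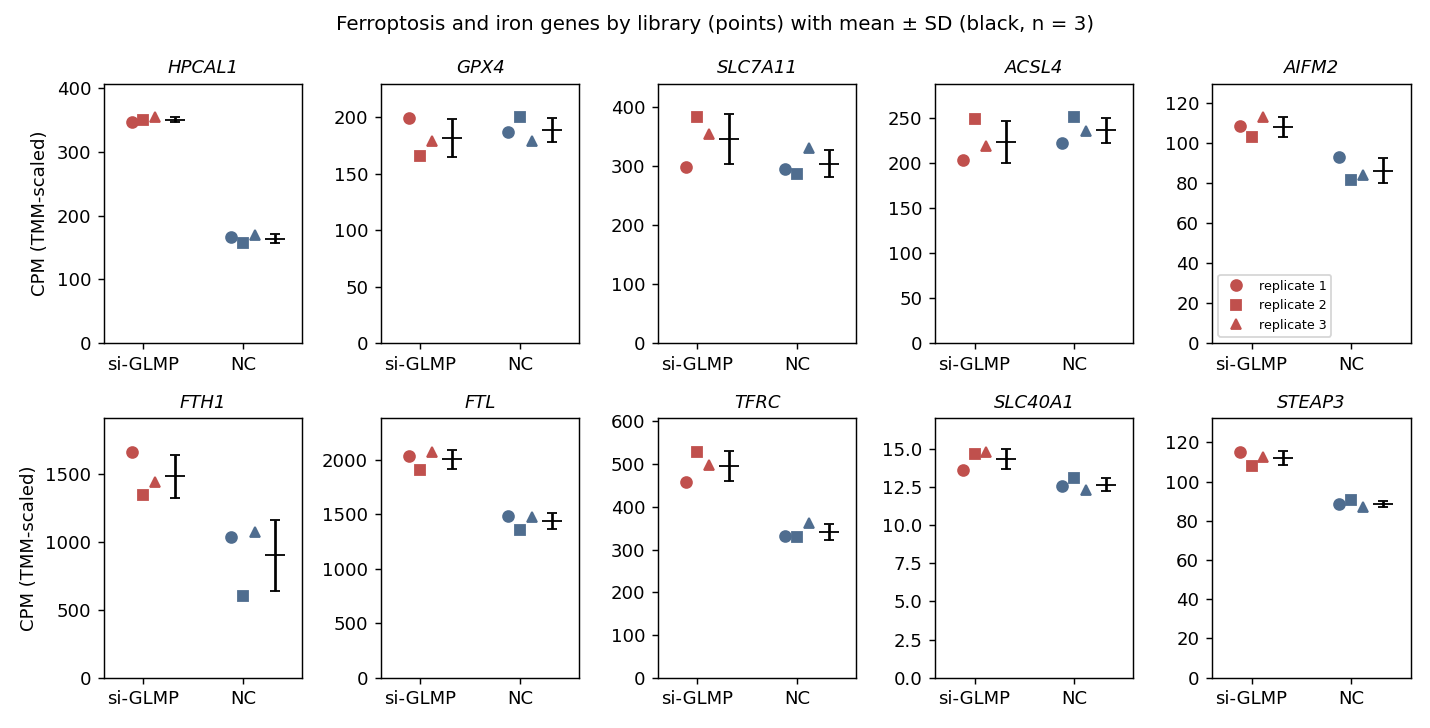
Level of each gene in CPM (TMM-scaled, linear axis from 0) in 3 si-GLMP and 3 NC libraries, with symbols for the replicate number and the mean ± SD in black. The si-GLMP libraries of HPCAL1 lie between 347 and 354 CPM, above NC at 157 to 169 CPM, and NC replicate 2 is low for FTH1 at 601 CPM.

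HPCAL1 (ENSG00000115756; GRCh38 chr2:10302889-10427617, plus strand) had the largest change of the 10 genes. Its counts were 7106, 7437 and 7311 in si-GLMP replicates 1 to 3, against 3300, 3203 and 3817 in NC replicates 1 to 3. In CPM the level was 347, 351 and 354 in si-GLMP, against 166, 157 and 169 in NC. The groups were far apart, and the SD was 3.44 CPM in si-GLMP and 6.51 CPM in NC. The fold was 2.14, a log2 fold change of 1.10 ± 0.06 (SE; 95% interval 0.97 to 1.23; edgeR FDR-adjusted p = 5.73e-20), and it ranked 160 among the positive fold changes of all tested genes. None of its exonic bases are shared with another annotated gene.

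A short list of neuronal calcium sensor genes related to HPCAL1 was looked up, and those of it that could be tested were not called. Over all tested genes 23.3% were called, and relatives outside this list were not looked up. NCS1, HPCAL4 and VSNL1 had log2 fold changes of -0.11, -0.09 and -0.06 (edgeR FDR-adjusted p = 0.243, 0.543 and 0.893). HPCA and NCALD had 10 or fewer counts in each library and RCVRN had 0. CDH2, which encodes N-cadherin, was low. It had 2.20, 2.78 and 3.10 CPM in si-GLMP, against 3.82, 4.06 and 4.13 CPM in NC, and fell by 0.57 ± 0.19 in log2 (edgeR FDR-adjusted p = 0.0260). PRKCQ, the kinase reported to phosphorylate HPCAL1, had 6.01, 6.04 and 7.07 CPM in si-GLMP, against 8.79, 8.17 and 8.65 CPM in NC, and fell by 0.42 ± 0.14 (edgeR FDR-adjusted p = 0.0208). Neither gene overlapped between the groups, but both calls rest on small counts. Leaving out a library raised the CDH2 adjusted p to 0.0572 (NC replicate 2), 0.0802 (NC replicate 3) or 0.129 (si-GLMP replicate 1), and DESeq2 on all 6 libraries gave 0.0566. For PRKCQ it lay between 0.0646 and 0.0783 in 4 of the 6 fits of that kind (all but those without NC replicate 2 or si-GLMP replicate 3).

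Among 10630 tested genes with a mean of at least 100 counts, the 5 whose centred log2 CPM was closest to that of HPCAL1 over the 6 libraries were HBEGF, GDF15, IL7R, AQP3 and S100P. Their root mean square differences from HPCAL1 ran from 0.053 to 0.072 on the log2 scale. HBEGF, an EGFR ligand, averaged 91.5 CPM in si-GLMP and 42.4 CPM in NC. GDF15, a stress cytokine, averaged 65.7 CPM in si-GLMP and 30.8 CPM in NC. AQP3, a water and glycerol channel, averaged 224 CPM in si-GLMP and 96.3 CPM in NC. In 2 groups of 3 libraries such likeness mainly reflects a fold of the same size with little spread.

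GPX4 (ENSG00000167468), the enzyme that reduces phospholipid hydroperoxides, did not pass the threshold. It had 199.5, 166 and 179 CPM in si-GLMP, against 187, 200.03 and 179 CPM in NC. The groups overlapped, and the log2 fold change was -0.05 with a 95% interval of -0.19 to 0.08 (edgeR FDR-adjusted p = 0.632). Of 10 tested genes for the synthesis of selenoproteins, the class to which GPX4 belongs, 1 rose, 0 fell and 9 missed the threshold. This stands beside 12.0% higher and 11.3% lower over all tested genes. The 1 that rose was SECISBP2, whose protein binds the selenocysteine insertion element, at 0.39 ± 0.08 (edgeR FDR-adjusted p = 8.10e-05).

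SLC7A11 (ENSG00000151012), the cystine importer of system xc-, had 299, 382 and 355 CPM in si-GLMP, against 294, 287 and 329.9 CPM in NC. The lowest si-GLMP library lay within the NC range. Its log2 fold change was 0.18 ± 0.07 (95% interval 0.04 to 0.33; edgeR FDR-adjusted p = 0.0627). It passed the threshold without NC replicate 3 (0.25, edgeR FDR-adjusted p = 0.0201) and without si-GLMP replicate 1 (0.28, edgeR FDR-adjusted p = 0.00268). The value was lower without si-GLMP replicate 2 (0.11, edgeR FDR-adjusted p = 0.340) and without NC replicate 2 (0.15, edgeR FDR-adjusted p = 0.220). SLC7A11 shares 8.97% of its exonic length with SLC7A11-AS1 on the opposite strand, which had 73 to 112 counts per library.

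Of 10 tested genes of cystine and glutathione supply, 5 rose, 0 fell and 5 missed the threshold, beside 12.0% higher and 11.3% lower over all tested genes; the median log2 fold change was 0.24. SLC3A2, the partner chain of SLC7A11, rose by 0.24 ± 0.07 (edgeR FDR-adjusted p = 0.00453). GCLM, the modifier subunit of glutamate-cysteine ligase, rose by 0.27 ± 0.07 (edgeR FDR-adjusted p = 0.00140), whereas the catalytic subunit GCLC had -0.18 ± 0.09 and was not called (edgeR FDR-adjusted p = 0.142). GSR, which regenerates reduced glutathione, rose by 0.23 (edgeR FDR-adjusted p = 0.00444). MGST1, a membrane glutathione transferase, averaged 269.7 ± 25.1 CPM in si-GLMP and 199 ± 12.5 CPM in NC (SD, n = 3 each) and rose by 0.44 (edgeR FDR-adjusted p = 1.11e-06). CHAC1, which degrades glutathione, rose by 0.42 (edgeR FDR-adjusted p = 0.0288). That call was lost in the fits that left out NC replicate 2 (0.119), NC replicate 3 (0.0604) or si-GLMP replicate 2 (0.223), and with DESeq2 on all 6 libraries (0.0658).

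ACSL4 (ENSG00000068366) loads long polyunsaturated fatty acids onto coenzyme A and so supplies the lipids that are peroxidised. It had 203, 249.5 and 219 CPM in si-GLMP, against 222, 251 and 236 CPM in NC. The groups overlapped, and the log2 fold change was -0.08 with a 95% interval of -0.22 to 0.06 (edgeR FDR-adjusted p = 0.462). Other genes of lipid remodelling and peroxidation moved both ways, with 4 of 19 tested rising, 5 falling and 10 missing the threshold (median -0.04). Over all tested genes 12.0% were higher and 11.3% lower. ACSL3, which activates monounsaturated fatty acids, averaged 251 ± 21.4 CPM in si-GLMP and 336 ± 11.3 CPM in NC (SD, n = 3 each) and fell by 0.42 in log2 (edgeR FDR-adjusted p = 1.25e-06). The desaturase FADS2 and the acyltransferase AGPAT3 fell by 0.36 and 0.33 (edgeR FDR-adjusted p = 0.00100 and 0.00126). ALOX5, a lipoxygenase, rose by 0.53, and CYB5R1, an oxidoreductase that feeds lipid peroxidation, rose by 0.49 (edgeR FDR-adjusted p = 6.71e-06 and 3.52e-05). LPCAT3, which inserts polyunsaturated chains into phospholipids, had -0.06 (edgeR FDR-adjusted p = 0.762). SCD, the desaturase that makes monounsaturated fatty acids and a gene singled out after its values were seen, had 207, 246 and 143 CPM in si-GLMP, against 360.1, 390.3 and 388 CPM in NC, with a log2 fold change of -0.94 ± 0.22 (edgeR FDR-adjusted p = 0.0489). That call was lost in 4 of 6 fits that left out a library, with adjusted p from 0.129 to 0.143 in those 4. On all 6 libraries SCD also lost it with upper-quartile factors (0.0505) and with no filter on low counts (0.0987).

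AIFM2 (ENSG00000042286; GRCh38 chr10:70098223-70132934, minus strand), also called FSP1, reduces coenzyme Q at the plasma membrane and so traps lipid radicals without glutathione. It had 108, 103 and 113 CPM in si-GLMP, against 93.0, 81.4 and 83.7 CPM in NC. The groups did not overlap, and the log2 fold change was 0.33 ± 0.07 (95% interval 0.19 to 0.47; edgeR FDR-adjusted p = 0.000333), a rise of 25.4%. Of the promoters listed for 8 of the 10 genes in RefSeq (GRCh38.p14; 250 bases before to 50 after a start; all but FTH1 and SLC7A11), 12 in all, the AIFM2 promoter alone held the core of the antioxidant response element, TGACNNNGC on either strand. It is shown because NRF2, the factor that binds this element, controls several of the glutathione genes above. A part of NRF2 in the AIFM2 change was not tested. The start is the RefSeq one, and the printed bases lie within the gene span given above. Capitals mark the match, which begins 22 bases before that start (chr10:70132831-70132855, minus strand).
AIFM2: gcacgagtGCTGAGTCAcgccccgc

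The same bases hold the AP-1 letters TGANTCA. Of 35116 promoters of this length 13.3% held the first motif and 7.71% the second. As with the hairpins, a match is a description of the letters and not evidence of binding. The core of the hypoxia response element, ACGTG on either strand, was in 5 of the 12 promoters (of FTL, GPX4, HPCAL1 and TFRC) and in 21.4% of all. The GPX4 promoters that held it overlap and share the same match, so that site is counted more than once. HPCAL1, with 3 listed starts, held the E-box CACGTG, which contains ACGTG, in 1 of them (7.26% of all promoters). It lay 17 bases before that RefSeq start and, as for AIFM2, within the gene span given above (chr2:10303675-10303696, plus strand).
HPCAL1: gtgcggccCACGTGggtcgcct

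NFE2L2, which encodes NRF2, had a log2 fold change of 0.11, its inhibitor KEAP1 -0.13 and the competing repressor BACH1 0.11, none of them called (edgeR FDR-adjusted p = 0.292, 0.190 and 0.389).

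Among other radical-trapping enzymes 1 of 13 rose, 4 fell and 8 missed the threshold, beside 12.0% higher and 11.3% lower over all tested genes. STARD7, which carries coenzyme Q out of the mitochondrion, had 189, 175 and 168 CPM in si-GLMP, against 268, 279 and 282 CPM in NC, and fell by 0.64 ± 0.07 (edgeR FDR-adjusted p = 2.12e-11). COQ2 and PDSS1, enzymes of coenzyme Q synthesis, fell by 0.52 and 0.24 (edgeR FDR-adjusted p = 0.000775 and 0.0317). DHCR7, whose substrate 7-dehydrocholesterol traps radicals, fell by 0.49 (edgeR FDR-adjusted p = 2.27e-07). SPR, an enzyme of tetrahydrobiopterin synthesis, rose by 0.39 (edgeR FDR-adjusted p = 0.00106). GCH1, the first enzyme of that pathway, had 0.24 (edgeR FDR-adjusted p = 0.151), and DHODH, which reduces coenzyme Q inside the mitochondrion, had -0.02 (edgeR FDR-adjusted p = 0.923). The PDSS1 call was lost without NC replicate 2 (0.321) and without si-GLMP replicate 2 or 3 (0.0771 and 0.117), and on all 6 libraries with DESeq2 (0.0522) or with no filter on low counts (0.0542).

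**Figure D2:**
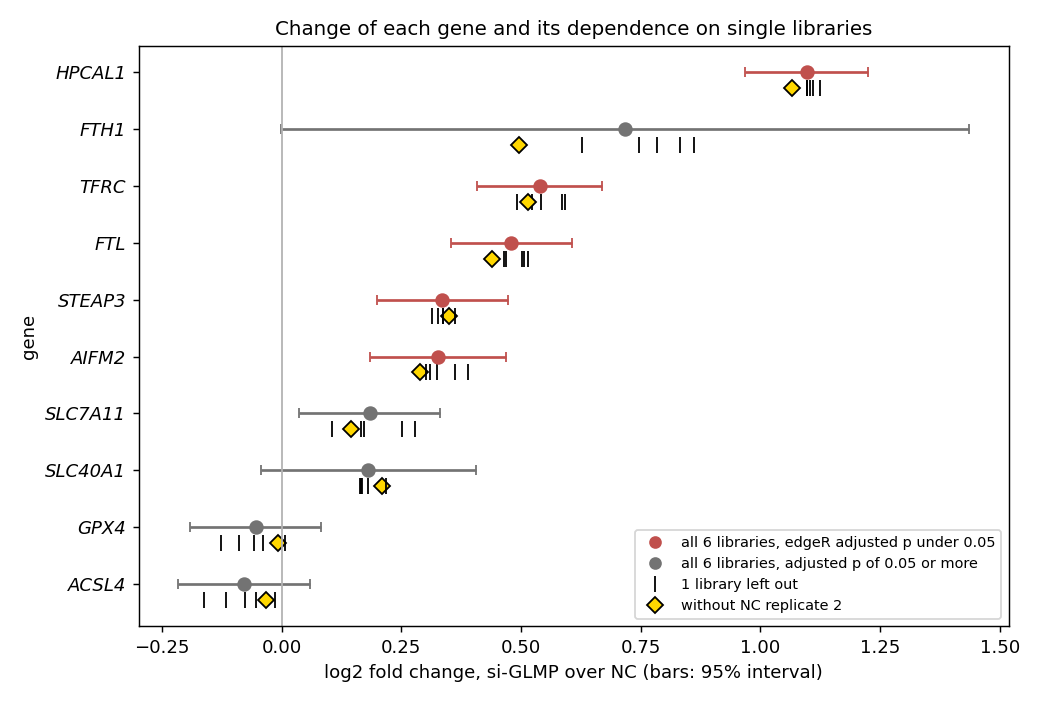
Log2 fold change of each gene, si-GLMP over NC (horizontal axis), with its 95% interval from all 6 libraries and, under each, the value with each library left out. HPCAL1 stays near 1.10 throughout, and the wide interval of FTH1 goes with NC replicate 2, without which its value is 0.50.

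Both ferritin chains were higher in every si-GLMP library than in any NC library. FTL (ENSG00000087086; GRCh38 chr19:48965301-48966878, plus strand), the light chain, had 2035, 1909 and 2069.98 CPM in si-GLMP, against 1481, 1354 and 1477 CPM in NC. Its log2 fold change was 0.48 ± 0.06 (95% interval 0.35 to 0.61; edgeR FDR-adjusted p = 2.73e-08). FTH1 (ENSG00000167996; GRCh38 chr11:61959718-61967660, minus strand), the heavy chain with the ferroxidase centre, had 1663, 1349.6 and 1442 CPM in si-GLMP, against 1036, 601 and 1071 CPM in NC. The log2 fold change was 0.72 ± 0.27, with an edgeR FDR-adjusted p of 0.149, so it was not called.

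The low library was NC replicate 2, where FTH1 stood at 57.1% of the mean of the other NC libraries. Of 4437 genes with a mean of at least 1000 counts only RAB5IF was lower there in that measure, whereas FTL stood at 91.6%. Without NC replicate 2, the FTH1 value was 0.50 ± 0.07 (edgeR FDR-adjusted p = 1.99e-07), close to that of FTL without the same library, 0.44 ± 0.06 (edgeR FDR-adjusted p = 2.22e-07). FTH1 was not called when any other library was left out. With all 6 libraries it was called by DESeq2, at an adjusted p of 0.0274, and by limma-voom, at 1.37e-05.

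FTH1 shares 62.4% of its exonic length with BEST1 on the opposite strand. BEST1 was given 16 to 30 counts in each library, and with the strand setting unknown the reads of the pair cannot be told apart. FTH1 and FTL also have many processed copies in the genome that can share reads with them. The 25 FTH1 pseudogene rows summed to 16.98, 16.2 and 17.8 CPM in si-GLMP, against 14.3, 14.2 and 13.0 CPM in NC, so this sum was not low in NC replicate 2. These sums equalled 1.02% to 1.24% of the FTH1 counts in si-GLMP and 1.21% to 2.37% in NC. Adding them to FTH1, an alternative chosen after the data were seen, left it uncalled. The values of both chains are uncertain to the extent that reads were shared.

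**Figure D3:**
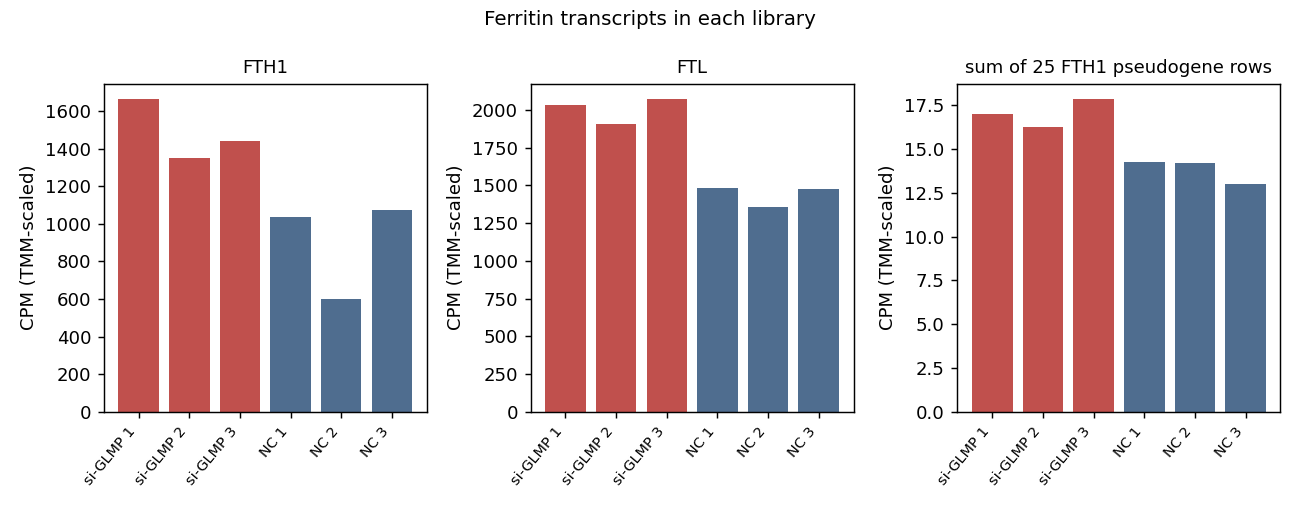
CPM (TMM-scaled, linear axis from 0) of FTH1, FTL and the summed FTH1 pseudogene rows in each si-GLMP and NC library, 1 bar per library. FTH1 in NC replicate 2, at 601 CPM, is far below the other NC libraries, which FTL and the pseudogene sum are not.

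Together the ferritin chains took 0.369%, 0.328% and 0.357% of all counts in si-GLMP, against 0.252%, 0.188% and 0.257% in NC. Per kilobase of transcript, the ratio of FTL to FTH1 was 1.71, 1.98 and 2.01 in si-GLMP, against 2.0003, 3.15 and 1.93 in NC. NC replicate 2 had the highest ratio, and the other NC libraries lay within the si-GLMP range.

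TFRC (ENSG00000072274; GRCh38 chr3:196027183-196082189, minus strand), the receptor that takes up iron-loaded transferrin, rose as well. It had 458, 528 and 498 CPM in si-GLMP, against 331, 329 and 361 CPM in NC. The groups did not overlap, and the log2 fold change was 0.54 ± 0.06 (95% interval 0.41 to 0.67; edgeR FDR-adjusted p = 2.78e-09). TFRC and FTL, a receptor for uptake and a chain for storage, thus both rose, while FTH1 was not called. Per kilobase, the ratio of TFRC to summed ferritin was 0.0244, 0.0316 and 0.0276 in si-GLMP, against 0.0256, 0.0317 and 0.0277 in NC, and these ranges overlapped. No protein or iron was measured, so the translational arm of the hairpins is outside these data.

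STEAP3 (ENSG00000115107), the endosomal reductase that converts the iron released from transferrin to the ferrous form, had 115, 108 and 113 CPM in si-GLMP, against 88.4, 90.4 and 87.3 CPM in NC. The groups did not overlap, and the log2 fold change was 0.34 ± 0.07 (95% interval 0.20 to 0.47; edgeR FDR-adjusted p = 0.000147). It shares 500 bases of its exons with STEAP3-AS1 on the opposite strand, which had 22 to 51 counts per library. SLC40A1 (ENSG00000138449), ferroportin, the iron exporter, had the lowest level of the 10 genes, also per kilobase. It had 13.6, 14.7 and 14.8 CPM in si-GLMP, against 12.6, 13.1 and 12.3 CPM in NC. The groups did not overlap, but the difference was small, with a log2 fold change of 0.18 ± 0.11 (95% interval -0.04 to 0.41; edgeR FDR-adjusted p = 0.261).

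Other genes of iron uptake, transport and export moved both ways, with 3 of 16 tested rising, 3 falling and 10 missing the threshold. The shares over all tested genes were 12.0% higher and 11.3% lower. SLC39A14, a carrier for iron not bound to transferrin, had 74.7, 65.4 and 67.0 CPM in si-GLMP, against 115, 108 and 119.6 CPM in NC, and fell by 0.73 ± 0.07 (edgeR FDR-adjusted p = 8.25e-12). CYBRD1, a ferric reductase of the cell surface, fell by 0.56 (edgeR FDR-adjusted p = 0.00607). Within the STEAP family, STEAP4 had 4.35, 5.66 and 4.31 CPM in si-GLMP, against 2.21, 1.76 and 1.64 CPM in NC, and rose by 1.35 ± 0.20 (edgeR FDR-adjusted p = 6.64e-07), while STEAP2 fell by 0.45 (edgeR FDR-adjusted p = 0.0150). The STEAP2 call was lost without NC replicate 2 (0.140) or si-GLMP replicate 1 (0.0790). MCOLN1, a lysosomal channel that can release iron, rose by 0.47 (edgeR FDR-adjusted p = 0.00431). The endosomal importer SLC11A2 (0.14) and the iron chaperones PCBP1 (-0.18) and PCBP2 (-0.04) were not called (edgeR FDR-adjusted p = 0.299, 0.336 and 0.767).

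Of 12 tested genes of iron sensing, storage turnover and iron-sulfur assembly, 3 rose, 1 fell and 8 missed the threshold. Beside this, 12.0% of all tested genes were higher and 11.3% lower. NCOA4, the receptor that delivers ferritin to autophagy, had 432, 427 and 386 CPM in si-GLMP, against 555, 619 and 536 CPM in NC. It fell by 0.46 ± 0.07 (edgeR FDR-adjusted p = 1.89e-07). Of the ferritin chains FTL was called higher and FTH1 was not called, and a link to NCOA4 was not tested. PROM2, a membrane protein linked to the export of ferritin, averaged 228 ± 7.30 CPM in si-GLMP and 154 ± 6.03 CPM in NC (SD, n = 3 each) and rose by 0.56 (edgeR FDR-adjusted p = 7.80e-10). HMOX1, which frees iron from haem, had 11.3, 10.8 and 18.5 CPM in si-GLMP, against 8.18, 8.42 and 7.94 CPM in NC, and rose by 0.72 ± 0.16 (edgeR FDR-adjusted p = 0.00166). IREB2, the iron regulatory protein that is degraded when iron is plentiful, rose by 0.25 (edgeR FDR-adjusted p = 0.0118). The IREB2 call was lost without NC replicate 2 (0.0667) or si-GLMP replicate 2 or 3 (0.116 and 0.0513). ACO1, the other iron regulatory protein, had -0.14, and FBXL5, the ligase subunit that degrades IREB2, had 0.13, neither called (edgeR FDR-adjusted p = 0.344 and 0.379).

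Among 11 regulators of ferroptosis, 4 rose, 0 fell and 7 missed the threshold, beside 12.0% higher and 11.3% lower over all tested genes. PTGS2, a transcript often used as a marker of ferroptosis, rose by 0.47 ± 0.08 (edgeR FDR-adjusted p = 6.04e-05). ATF4, which induces SLC7A11 and CHAC1 under amino acid stress, rose by 0.28 (edgeR FDR-adjusted p = 0.000547). HSPB1 and SAT1 rose by 0.18 and 0.19 (edgeR FDR-adjusted p = 0.0341 and 0.0359). Both calls were lost in 4 of 6 fits that left out a library, and with no filter on low counts (0.0536 for HSPB1 and 0.0680 for SAT1). Over all 8 lists of other ferroptosis and iron genes, 21 of 96 tested rose, 15 fell and 60 missed the threshold, so 37.5% were called, beside 23.3% of all tested genes; their median log2 fold change was 0.04. The lists were chosen with earlier results known, and nothing is read from this share. Without NC replicate 2 the counts were 16 higher and 11 lower.

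**Figure D4:**
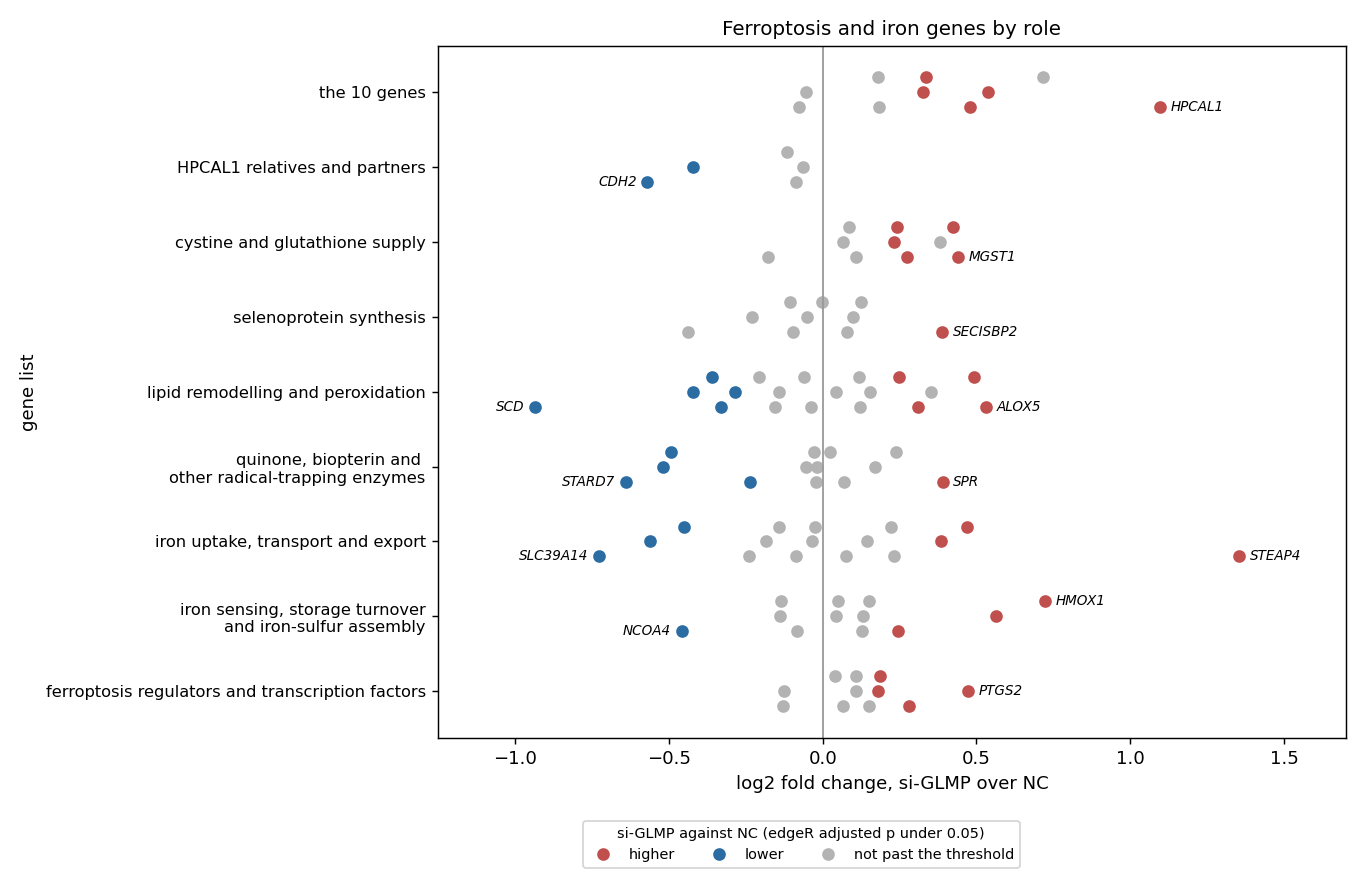
Log2 fold change, si-GLMP over NC, of the 10 genes and of 96 other tested ferroptosis and iron genes in rows by role, 1 point per gene, coloured by the call over all tested genes. HPCAL1 at 1.10 and STEAP4 at 1.35 lie farthest right, and SCD at -0.94 and SLC39A14 at -0.73 farthest left.

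Per kilobase of transcript, the order of the 10 genes by their mean level was the same in both groups. FTL was the highest, at 2283 ± 96.3 CPM per kb in si-GLMP and 1637 ± 82.0 in NC (SD, n = 3 each), followed by FTH1 at 1208 ± 131 in si-GLMP and 735 ± 213 in NC. GPX4 came next, at 198 ± 18.4 in si-GLMP and 205 ± 11.6 in NC. HPCAL1 followed, at 181 ± 1.77 in si-GLMP and 84.5 ± 3.35 in NC. Its range overlapped that of GPX4 in si-GLMP and lay below it in NC. Such an order between genes depends on the transcript chosen for each. In CPM not divided by length, HPCAL1 averaged 351 in si-GLMP and 164 in NC, against 182 and 189 for GPX4. TFRC, ACSL4, SLC7A11, AIFM2 and STEAP3 followed between 96.8 and 28.6 in si-GLMP and between 66.6 and 22.7 in NC. SLC40A1 was last, at 4.17 ± 0.191 in si-GLMP and 3.68 ± 0.122 in NC. In si-GLMP the neighbours ACSL4 and SLC7A11, and SLC7A11 and AIFM2, overlapped in range, and in NC no neighbours did.

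**Figure D5:**
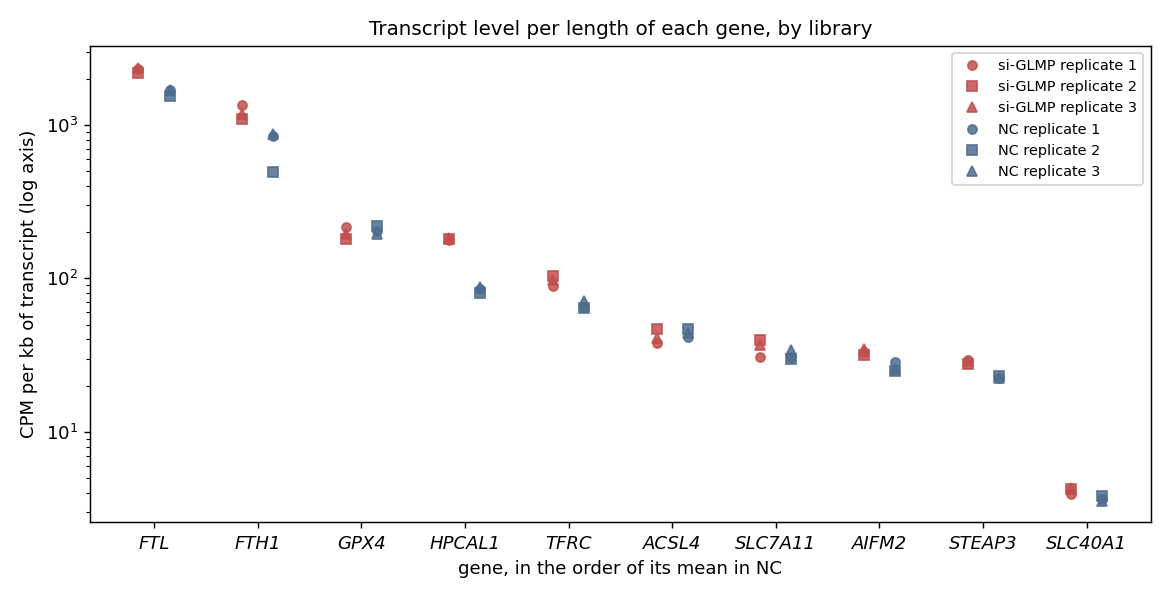
CPM per kilobase of 1 transcript per gene (log axis) in each si-GLMP and NC library, with genes in the order of their NC mean. The levels span from 2283 CPM per kb for FTL to 4.17 for SLC40A1 in si-GLMP, and HPCAL1 lies level with GPX4 in si-GLMP but below it in NC.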

How the data were processed

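The authors deposited a table of raw read counts per gene, 1 column per library; all 6 columns were matched by title. Per the submitters' processing notes, HISAT2 and GRCh38 were used. The sources used here give neither the counter nor its annotation and strand setting, so a gene and an antisense partner cannot be told apart where they overlap.

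Counts were filtered with filterByExpr (minimum count 10), leaving 99.8% or more of every library, scaled by TMM and compared between si-GLMP and NC with the quasi-likelihood test of edgeR 4.0.16 (R 4.3.3), with group as the only term. The biological coefficient of variation was 6.91%. Standard errors are the log2 fold change over the square root of F. The method was tested on simulated data in which all genes had the same spread beyond counting error. That test does not cover genes with a wider spread, such as FTH1 and SCD. A count of 3, the floor, was 0.134 to 0.151 CPM, and counting error only is covered by it.

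The 10 members and the 8 lists of other genes were chosen with earlier results of these data known. Beside GLMP and the members, most named genes are 18 fixed by symbol, up to 5 called genes per list with the smallest adjusted p, and 5 most like HPCAL1. Named outside these rules are SCD, relatives of HPCAL1, cell type markers and SLC35E2A. So are genes that overlap GLMP or a member and those lowest in NC replicate 2. No list was tested as a set, and 1 gene of the regulator list is not reported here. Lengths and hairpins used GENCODE 29 transcripts (best APPRIS tag, then longest), and promoters came from RefSeq. Alternatives were RLE and upper-quartile scaling, 2 other filters, each library left out, limma-voom (limma 3.58.1), DESeq2 1.42.0 and a block for the replicate number.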

Additional observations from a re-analysis of the deposited data

How the results depend on the processing

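HPCAL1, TFRC, FTL, STEAP3 and AIFM2 kept their direction and their call in all 13 alternatives, with HPCAL1 between 1.07 and 1.12 on the log2 scale. GPX4, ACSL4 and SLC40A1 were called in none of them. FTH1 ranged from 0.50 to 0.86 and was called in 4 (without NC replicate 2, with DESeq2, with limma-voom and with the block), and SLC7A11, from 0.11 to 0.28, in 3. The number of the 10 genes past the threshold ran from 5 to 6 when a library was left out, and was 5 under RLE or upper-quartile scaling and under both other filters. Of GLMP, the 10 genes, the tested genes of the other lists and those most like HPCAL1, none reversed its direction with a call. The cell type markers and RAB5IF, IGFN1, SNHG7 and APRT were not followed in these alternatives. Leaving out a library gave 1482 to 1788 higher and 1283 to 1660 lower genes over the whole table, against 1910 and 1802 with all 6.

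The replicate numbers did not pair the libraries by the rule used: deviations of same-numbered libraries correlated at 0.0388, 0.0263 and 0.0013, none over 0.1, although each si-GLMP library correlated best with its own number. With the replicate block 2052 genes were higher and 1920 lower, 7 of the 10 genes passed, FTH1 (edgeR FDR-adjusted p = 0.0220) and SLC7A11 (0.0405) among them, and of the 96 other genes 21 were higher and 14 lower. SCD lost its call (0.0777).

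With 3 libraries a group, an exact permutation test of a single value cannot go below 0.10, so the calls rest on the spread shared across genes. Genes with low counts, such as CDH2 and STEAP4, have wide errors.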

Other observations

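The genes that stood lowest in NC replicate 2 against the other NC libraries, among 4437 with a mean of at least 1000 counts, were RAB5IF (-0.85 on the log2 scale), FTH1 (-0.81), IGFN1 (-0.58), SNHG7 (-0.55) and APRT (-0.55). Among the 10 genes with that many counts, the others lay between -0.13 (FTL) and 0.13 (ACSL4) in the same measure. The epithelial adhesion genes EPCAM and CDH1 averaged 567 and 388 CPM in si-GLMP, against 459 and 315 CPM in NC. Both rose by 0.30 (edgeR FDR-adjusted p = 0.000294 and 0.000358), whereas KRT7 fell by 0.27 (edgeR FDR-adjusted p = 0.00105). The other epithelial markers KRT18, KRT19 and KRT8 had -0.13, -0.10 and -0.05 and were not called (edgeR FDR-adjusted p = 0.150, 0.305 and 0.672).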
